A study of Mus musculus with 2 samples.

Results

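The genes of cholesterol and fatty acid synthesis were compared between the 2 fractions of 4T1 cells, a BALB/c mouse mammary carcinoma line, that differ in aldehyde dehydrogenase (ALDH) activity. Cultured, untreated 4T1 cells were sorted with ALDEFLUOR, whose substrate turns fluorescent in cells with active ALDH, and the total RNA of each fraction was hybridised to 1 Agilent SurePrint G3 Mouse array labelled with Cy3. The ALDH-positive array is the one its label calls cancer stem cell (S), and the ALDH-negative array is the one labelled anti cancer stem cell (NS). Both fractions share the line, the culture and the sort, and neither carries a transgene or an added agent. The 37 genes were chosen by name, as the non-control probes of the arrays that carry 1 of 37 listed gene names, out of 22128 genes with a symbol on the arrays. They comprised 16 sterol synthesis enzymes, 15 fatty acid synthesis genes, 5 regulators and the sterol hydroxylase gene *Cyp46a1*. With 1 array per population there was no test and no replicate spread, and every value is only as precise as 2 arrays allow.

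Cells build cholesterol from acetyl-CoA through mevalonate, isoprenoids and squalene, and they build fatty acids from the same acetyl-CoA through malonyl-CoA. Both routes are transcribed under sterol regulatory element-binding proteins (SREBPs), which SCAP escorts out of the endoplasmic reticulum when sterols are low and INSIG proteins retain there when sterols are high. SREBP2, the product of *Srebf2*, acts mainly on sterol genes, and SREBP1, the product of *Srebf1*, acts mainly on fatty acid genes. In mammary epithelium this programme is known for supplying milk fat, and in tumour cells for supplying membranes.

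Promoter letters are shown first, since SREBPs bind the sterol regulatory element (SRE) and CLOCK, the factor the study concerned, binds the E-box CACGTG. The RefSeq promoter table (GRCm38.p6) held 31 of the 37 genes. *Scd1*, *Scd2*, *Fads1*, *Sqle*, *Fdft1* and *Fdps* were not matched. Both strands of a window of 300 bases, from 250 before to 50 after the gene start, were searched. The SRE was searched as TCACNCCAC, the E-box as CACGTG and the GC box as GGGCGG, and the CCAAT box by the letters of its name. Matches of different motifs do not overlap in the promoters printed here. The 250 bases before the start are printed for *Hmgcs1*, the only matched gene with SRE letters, for *Insig1*, which has E-box letters, and for *Cyp46a1* and *Aacs*, which had the highest ratios. Capitals mark the matches on either strand.
Hmgcs1 promoter, chr13:119690101-119690350, plus strand: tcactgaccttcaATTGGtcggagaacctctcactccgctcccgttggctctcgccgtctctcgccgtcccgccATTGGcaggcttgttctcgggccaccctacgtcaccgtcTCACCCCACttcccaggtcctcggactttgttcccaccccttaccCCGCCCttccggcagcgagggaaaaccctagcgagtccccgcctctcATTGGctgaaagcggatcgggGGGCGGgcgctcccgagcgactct
Insig1 promoter, chr5:28071162-28071411, plus strand: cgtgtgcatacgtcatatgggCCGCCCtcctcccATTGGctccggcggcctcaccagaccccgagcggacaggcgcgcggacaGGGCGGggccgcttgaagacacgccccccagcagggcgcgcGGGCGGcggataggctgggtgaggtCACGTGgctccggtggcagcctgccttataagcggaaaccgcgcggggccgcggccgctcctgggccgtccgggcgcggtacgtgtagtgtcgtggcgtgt
Cyp46a1 promoter, chr12:108334066-108334315, plus strand: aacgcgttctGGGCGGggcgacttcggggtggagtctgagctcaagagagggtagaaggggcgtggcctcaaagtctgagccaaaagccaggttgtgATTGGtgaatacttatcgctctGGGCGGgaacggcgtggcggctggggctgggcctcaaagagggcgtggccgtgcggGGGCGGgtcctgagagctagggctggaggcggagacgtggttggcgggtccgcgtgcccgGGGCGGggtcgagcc
Aacs promoter, chr5:125475623-125475872, plus strand: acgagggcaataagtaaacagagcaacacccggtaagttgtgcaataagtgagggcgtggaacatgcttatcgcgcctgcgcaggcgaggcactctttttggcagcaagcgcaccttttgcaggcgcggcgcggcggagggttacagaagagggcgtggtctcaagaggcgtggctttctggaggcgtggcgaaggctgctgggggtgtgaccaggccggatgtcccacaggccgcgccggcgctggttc
The SRE letters of *Hmgcs1* began at position -137, counted back from the gene start, and the E-box letters of *Insig1* began at -101. The *Aacs* stretch held none of the 4 motifs, and the *Cyp46a1* stretch held 4 GC boxes and 1 CCAAT box.

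Across the 31 matched genes, SRE letters were found in 1 (3.23%), against 1.44% of the promoters of all 27025 genes in the table and 1.36% of those of 11026 measured genes. E-box letters were found in 6 (19.4%), namely *Hsd17b7*, *Sc5d*, *Dhcr7*, *Scap*, *Insig1* and *Elovl5*, against 8.09% of all and 11.2% of measured genes. CCAAT letters were found in 24 (77.4%), against 41.1% of all and 42.8% of measured genes. GC box letters were also found in 24 (77.4%), against 38.2% of all and 64.1% of measured genes. The sterol synthesis enzymes held CCAAT letters in 12 of 13 promoters and GC box letters in 12 of 13. The fatty acid synthesis genes held CCAAT letters in 7 of 12 and GC box letters in 6 of 12. These are matches of letters in a short window and describe no binding.

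The log2 signals of both arrays were brought to 1 distribution, and a ratio is the normalized ALDH-positive signal over the ALDH-negative signal, in intensity units. A gene was called higher with a ratio of at least 1.5 and a Z-score of at least 2, and lower with a ratio of at most 0.75 and a Z-score of at most -2, the limits of the study's methods. The Z-score sets a log2 ratio against the probes of similar brightness. A gene with several probes is given by its brightest one, and a gene was measured if its probe stood well above background on at least 1 array. All 37 genes were measured, on both arrays. Their own error, computed by the scanner software for each spot and combined over both arrays, was 0.20 to 0.21 (log2). It was nearly the same for dim and bright genes, 0.21 for *Cyp46a1* (ALDH-negative signal 104) and 0.20 for *Scd2* (50662). Being within its own error thus means a log2 ratio below 0.20 to 0.21 in size and does not measure each gene's noise. Probes printed repeatedly had a smaller median SD within an array, 0.059 (ALDH-negative) and 0.048 (ALDH-positive). Neither covers the spread between cultures or sorts. Fewer cells expressing a gene and less RNA per cell cannot be told apart in such sorted bulk samples.

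Cholesterol and fatty acid synthesis genes mostly had similar signals in both fractions, and *Cyp46a1* alone was called. It was the 1 gene called higher among the 37 (2.70%), beside 1.32% of the 13989 measured genes. None of the 37 was called lower, beside 2.03% of the measured genes. The median log2 ratio was 0.088 over the 37 genes, with 25 above and 12 below 0, and 0.045 over all measured genes, of which 60.6% lay above 0. The quartiles of the 37 were -0.012 and 0.16, and those of all measured genes -0.083 and 0.18. For 30 of the 37 genes (81.1%) the log2 ratio was smaller than its own error, as it was for 66.9% of all measured genes. Measured genes include dimmer ones with larger errors, such as *Ubxn4* (ALDH-negative signal 7.80, error 0.73), so these shares were not matched for brightness. Without *Cyp46a1*, the 36 other genes ranged from -0.47 to 0.43.

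**Figure D1:**
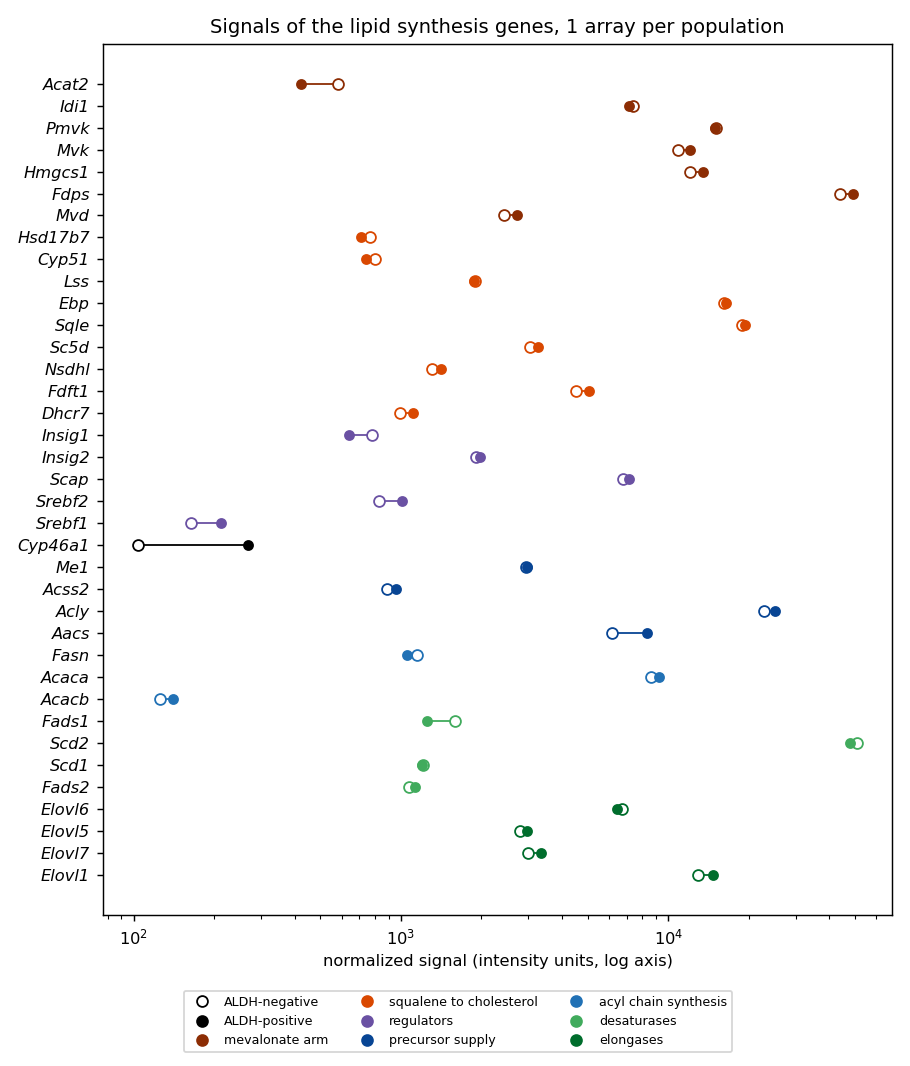
Normalized signal (intensity units, log axis) of each of the 37 genes on the ALDH-negative array (open circles) and the ALDH-positive array (filled circles), 1 array per population, coloured by step. The 2 circles nearly coincide for most genes, and *Cyp46a1* has the widest gap, 104 against 267. Brightness depends on the probe, so signals of different genes are not comparable.

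The ratios of sterol and fatty acid synthesis genes overlapped. The 16 sterol synthesis enzymes had a median log2 ratio of 0.067, from -0.47 to 0.16, with 10 above 0 and 15 within their own error. The 15 fatty acid synthesis genes had a median of 0.088, from -0.34 to 0.43, with 10 above 0 and 13 within their own error. The difference of the medians, sterol minus fatty acid, was -0.022 (log2), and it took either sign under other processing, from -0.024 to 0.10. No gene of either group was called, beside 1.32% of all measured genes higher and 2.03% lower.

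**Figure D2:**
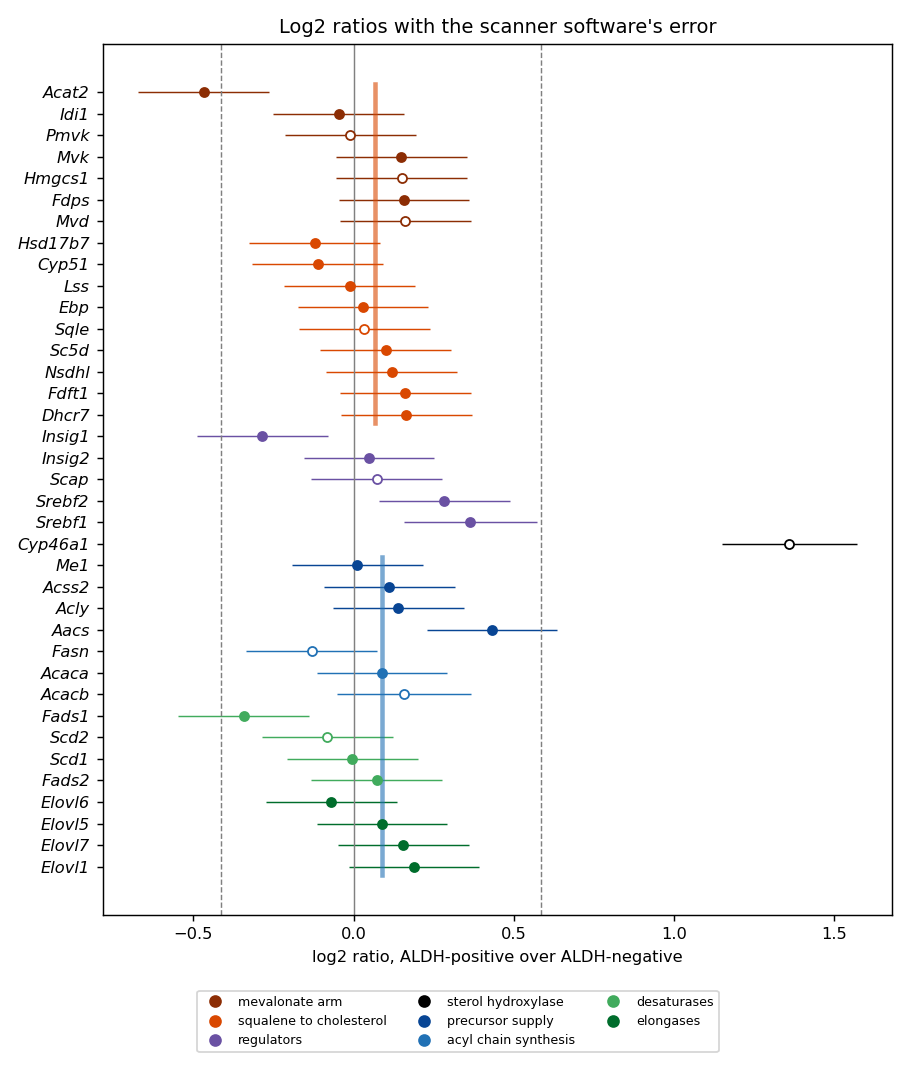
Log2 ratio (ALDH-positive over ALDH-negative) of each gene by step, with the scanner software's error as the bar, open circles for the 9 genes in the border strip of the array (its last eighth by row or by column) and dashed lines at ratios of 0.75 and 1.5. The vertical orange and blue bars at 0.067 and 0.088 are the medians of the sterol and fatty acid genes, and only *Cyp46a1* lies beyond 1.5.

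The mevalonate arm opens with *Acat2*, the thiolase that joins acetyl-CoA units to acetoacetyl-CoA. Its normalized signals were 583 (ALDH-negative) and 422 (ALDH-positive), a log2 ratio of -0.47 ± 0.20 (software error). This was the lowest ratio of the 37 genes, 0.723, and it was past the limit of 0.75, while the Z-score of -1.97 was not past -2. Before normalization the *Acat2* signals were 489 and 499, and measured probes as a whole had a median log2 ratio of 0.49. Every direction here is thus relative to a brighter ALDH-positive array. *Acat2* was called lower when the Z-score was taken over 100 or 500 probes on either side in place of 250. The probe lies at chr17:13136482-13136541, minus strand (NCBI37).

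The other 6 enzymes of this arm lay closer together. *Hmgcs1*, the synthase that makes HMG-CoA, had 12112 and 13445, a log2 ratio of 0.15. *Mvk*, mevalonate kinase, had 0.15 and *Mvd*, mevalonate diphosphate decarboxylase, had 0.16. *Pmvk*, phosphomevalonate kinase, had -0.010 with its brightest probe and 0.19 with its other one. *Idi1*, the isomerase of isopentenyl diphosphate, had -0.046. *Fdps*, farnesyl diphosphate synthase, had 43945 and 49014, a log2 ratio of 0.16. The median over the arm was 0.15 with *Acat2* included, and all but *Acat2* were within their own error.

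The 9 enzymes from squalene to cholesterol were all within their own error with their brightest probes, with a median of 0.033. *Fdft1*, squalene synthase, had 4527 and 5064, a log2 ratio of 0.16. *Sqle*, squalene epoxidase, had 18937 and 19380, a log2 ratio of 0.033, and *Lss*, which cyclises its product to lanosterol, had -0.012. The demethylation steps gave both signs, with -0.11 for *Cyp51*, 0.12 for *Nsdhl* and -0.12 for *Hsd17b7*. The other *Nsdhl* probe gave 0.31, past its error of 0.21, and the other *Hsd17b7* probes gave 0.0031 and 0.066. The late steps lay above 0, with 0.029 for *Ebp*, the sterol isomerase, 0.10 for *Sc5d*, the desaturase, and 0.16 for *Dhcr7*, the last reductase. *Dhcr7* had signals of 990 and 1109, the largest log2 ratio of the 9 by brightest probe.

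The 5 regulators had a median size of the log2 ratio of 0.28, against 0.12 over the 37 genes, and 2 of them were within their own error. *Srebf1* had 165 (ALDH-negative) and 212 (ALDH-positive), a log2 ratio of 0.36 ± 0.21 and a Z-score of 1.19. Of the 20 measured spots nearest to *Srebf1* on the array, 5 were called lower and none higher, and with the median of those spots subtracted it had 0.40 and a Z-score of 1.32. *Srebf2* had 827 and 1006, a log2 ratio of 0.28 ± 0.20 and a Z-score of 1.28, and its other probe gave 0.32. *Insig1*, which retains SCAP and is itself a known SREBP target, had 780 and 640, a log2 ratio of -0.28 ± 0.20 and a Z-score of -1.27. *Scap* had 6803 and 7150, a log2 ratio of 0.072. Both SREBP genes were thus brighter on the ALDH-positive array and *Insig1* dimmer, and none of these met the limit on the ratio or on the Z-score.

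*Insig2* gave different answers with its 2 probes. The brighter probe had 1910 and 1974, a log2 ratio of 0.048, and the dimmer one had 543 and 434, a log2 ratio of -0.32. For *Srebf2* both probes lay above 0. The first 30 of the 60 bases of these probes are shown, since they decide which stretch of each transcript was read.
Insig2 probe 1, chr1:123201085-123201144, minus strand: tatgtatacacaagcctaatggtagtagtg
Insig2 probe 2, chr1:123202133-123202192, minus strand: caatgtgccaaacgtgttactgacacagag
Srebf2 probe 1, chr15:82034765-82034824, plus strand: aactaggtctttgcaccagagagcattttg
Srebf2 probe 2, chr15:82030068-82030127, plus strand: atccagctgttcacctgtgacctgctactg
Positions are those listed in the array files on NCBI37, whose exon annotation was not used here.

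Precursor supply for lipogenesis comprised *Acly*, *Acss2*, *Aacs* and *Me1*, all 4 above 0 with their brightest probes, with a median of 0.13. *Aacs*, the cytosolic synthetase that activates acetoacetate and can feed both sterols and fatty acids, had 6161 and 8313. Its log2 ratio was 0.43 ± 0.20, a ratio of 1.35, and its Z-score of 2.35 was past 2 while the ratio was not past 1.5. *Aacs* and *Cyp46a1* were the 2 genes with a Z-score of at least 2 in size, 5.41% of the 37 beside 4.53% of all measured genes. *Acly*, ATP citrate lyase, had 22769 and 25072, a log2 ratio of 0.14, and *Acss2*, the acetate-activating synthetase, had 0.11. *Me1*, malic enzyme, which supplies NADPH, had 0.011. Other probes lay below 0 for *Acly*, at -0.25, and for *Me1*, at -0.10 and -0.0070. *Aacs* has 1 probe, and with it counted among the sterol genes the difference of the group medians was 0.019 in place of -0.022.
Aacs probe, chr5:125997524-125997583, plus strand, first 30 bases: cctgggctctttctattgtgactgtcctct
Acat2 probe, first 30 bases: gtcatcaagggctccagagtgaacagcatt
These are the probes of the genes that passed 1 limit and missed the other.

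Acyl chain synthesis was nearly level between the fractions. *Acaca*, the cytosolic acetyl-CoA carboxylase that commits carbon to fatty acids, had 8659 and 9206, a log2 ratio of 0.088. *Acacb*, the mitochondrial carboxylase, had 126 and 140, a log2 ratio of 0.16. *Fasn*, fatty acid synthase, had 1151 and 1051, a log2 ratio of -0.13 ± 0.20. The carboxylases thus lay above 0 and the synthase below, each by less than its own error.

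*Acaca* also shows how far near-identical probes agree on these arrays. Its 2 bright probes are offset by 1 base and share 57 of 59 overlapping positions, and capitals mark the shared bases among the first 30.
Acaca probe 1, chr11:84215093-84215152, plus strand: gCTTCAGTCCAATGCACTCTTCTCACGTTT
Acaca probe 2, chr11:84215094-84215153, plus strand: CTTCAGTCCAATGCACTCTTCTCACGTTTT
The probes had log2 ratios of 0.088 and 0.070, a gap far below the software error of 0.20. The other 2 *Acaca* probes, which were dim at 96.6 and 66.8 on the ALDH-negative array, gave -0.090 and -0.092.

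Desaturases, which place double bonds, had the lowest median of the steps, -0.043, with 1 of 4 above 0. *Fads1*, the delta-5 desaturase of polyunsaturated fatty acids, had 1588 and 1252, a log2 ratio of -0.34 ± 0.20, a ratio of 0.789 and a Z-score of -1.79. *Fads2*, the delta-6 desaturase, had 1070 and 1125, a log2 ratio of 0.072, and its other probe gave -0.23. *Scd1* and *Scd2*, the stearoyl-CoA desaturases of monounsaturated fatty acids, had -0.0039 and -0.082. Only *Fads1* among the 4 exceeded its own error. The elongases *Elovl1*, *Elovl5*, *Elovl6* and *Elovl7*, which lengthen fatty acids beyond the product of fatty acid synthase, had 0.19, 0.089, -0.070 and 0.15, with a median of 0.12 and each within its own error.

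**Figure D3:**
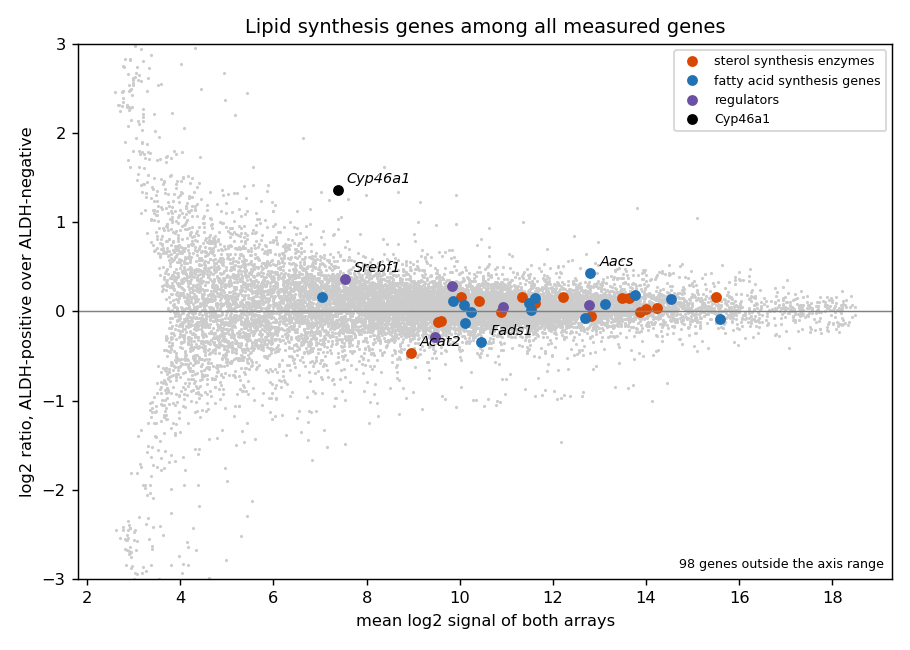
Log2 ratio (ALDH-positive over ALDH-negative) against mean log2 signal of both arrays for all 13989 measured genes (grey), with sterol synthesis enzymes in orange, fatty acid synthesis genes in blue, regulators in purple and *Cyp46a1* in black, and the 5 genes of at least 0.3 in size named. Apart from *Cyp46a1* at 1.36 the coloured points stay between -0.47 and 0.43. The axis leaves out 98 genes.

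The gap between probes of a gene was often as large as the ratios themselves. The 37 genes had 56 probes, of which 54 were measured, and 22 genes had 1 probe. The second probes of *Acacb* and *Hmgcs1* were below background on both arrays, and that of *Fdft1* was above it on 1 array only. Of 13 genes with at least 2 measured probes, 6 had all probes on 1 side of 0 and 7 had probes on both sides. The range between probes of a gene had a median of 0.18 (log2) and reached 0.39 for *Acly*, whose dim probe gave -0.25. For comparison, the median size of the log2 ratio over the 37 genes was 0.12. No measured probe of any gene but *Cyp46a1* was called.

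**Figure D4:**
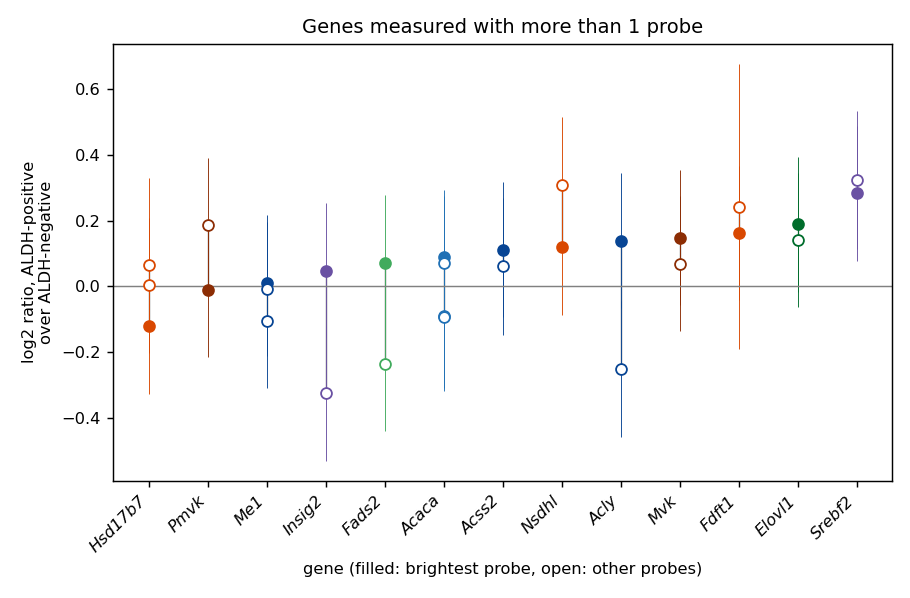
Log2 ratio (ALDH-positive over ALDH-negative) of every measured probe of the 13 genes with at least 2, filled for the brightest probe and open for the others, with the software error as thin bars and a line joining the probes of a gene. The probes of 7 genes fall on both sides of 0, and those of *Insig2* and *Acly* lie farthest apart.

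*Cyp46a1*, the hydroxylase that turns cholesterol into 24S-hydroxycholesterol and is best known in brain, had signals of 104 (ALDH-negative) and 267 (ALDH-positive). The log2 ratio was 1.36 ± 0.21 (software error), a ratio of 2.56, with a Z-score of 4.01, and it ranked 177th of 13989 measured genes. Its only probe was well above background on both arrays. The listed position, chr12:109596310-109598708 (plus strand, NCBI37), covers 2399 bases for a probe of 60.
Cyp46a1 probe, first 30 bases: ttgattgatggggtcagagtccctggcaat
The spot lies in the strip made up of the last eighth of the array's rows and the last eighth of its columns. Of the 6830 measured probes in that strip, 3.76% were called higher, against 0.694% of the 21755 elsewhere. Calls lower were more frequent there too, 4.35% against 2.39%.

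The spots around *Cyp46a1* had high ratios too. Of the 20 nearest measured spots, within 97.9 µm, 10 were called higher and 10 had a log2 ratio above that of *Cyp46a1*, with a median of 1.47 and a range from -0.14 to 6.04. Of these 20, 9 were above background on the ALDH-positive array only. Over the 200 nearest spots, within 391 µm, the median was 0.026 and 13 were called higher. With the median of the 20 nearest spots subtracted, the log2 ratio of *Cyp46a1* was -0.11 and its Z-score -0.31, below the limits for a call. That median is not a neutral baseline, since 9 of the 20 spots passed the filter through the ALDH-positive array alone. These spots carry probes of other genes, and the part of position on the array in the value of *Cyp46a1* was otherwise not tested.

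**Figure D5:**
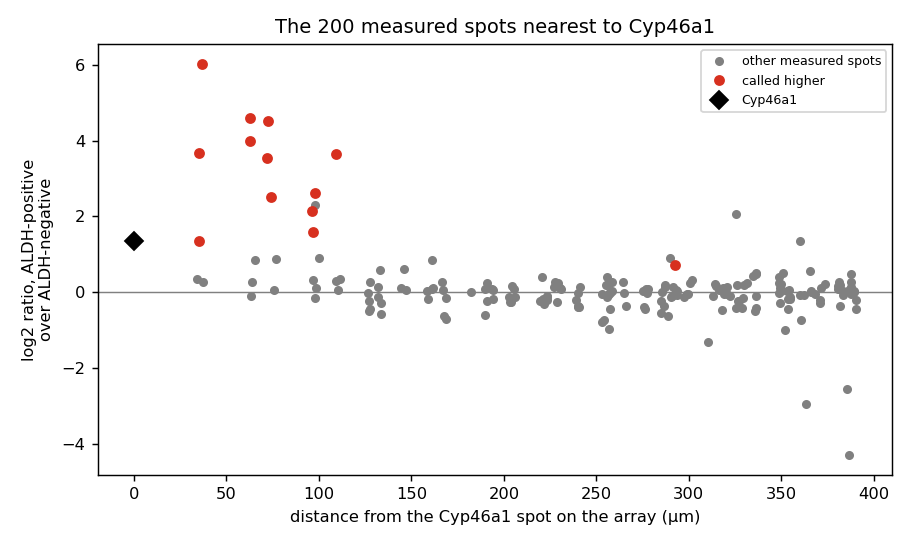
Log2 ratio (ALDH-positive over ALDH-negative) of the 200 measured spots nearest to the *Cyp46a1* spot against their distance from it in µm, with spots called higher in red and *Cyp46a1* as a diamond at 0. Of the 13 red spots, 10 are among the 20 nearest, within 97.9 µm, and farther spots lie mostly near 0.

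Most other genes had quieter surroundings, though *Srebf1* had 5 called-lower spots among its 20 nearest. Of the 36, 2 had more than 1 called-higher spot among the 20 nearest, *Pmvk* with 6 and *Sqle* with 2. The brightest *Pmvk* probe lies 127 µm from *Cyp46a1*, beside the same group of spots. Neither gene had a log2 ratio beyond 0.033 in size with its brightest probe. With neighbours subtracted, *Aacs* kept a log2 ratio of 0.39 and a Z-score of 2.09, and *Acat2* had -0.43 and -1.72. Of the 37 genes, 9 lay in the border strip, among them *Hmgcs1*, *Sqle*, *Fasn* and *Scd2*.

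Other lipid genes were taken from lists beside the 37. Of 10 other sterol synthesis genes, all measured, none was called and the median log2 ratio was 0.028. Of 20 genes of sterol uptake, transport and storage, 17 were measured with a median of 0.087, and 1 was called higher, beside 1.32% of all measured genes. This was *Mylip*, which encodes a ubiquitin ligase, with 74.6 and 130 and a log2 ratio of 0.81. Of 8 genes of SREBP processing, all measured, 7 lay below 0, with a median of -0.058 and no call. The remaining gene, *Ubxn4*, had 7.80 and 16.6 with a software error of 0.73.

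Of 26 further genes of fatty acid synthesis and esterification, 22 were measured with a median of 0.10, and 2 were called lower, beside 2.03% of all measured genes. *Scd3*, a stearoyl-CoA desaturase, had 249 and 164, a log2 ratio of -0.61, while its other probes had a median of -0.14. *Mlxipl*, which encodes the lipogenic factor ChREBP, had 1818 and 1297, a log2 ratio of -0.49, while its other probe gave 0.85, and its spot lies in the border strip. Of 13 fatty acid oxidation genes, 12 were measured, 10 lay above 0 and the median was 0.16 with no call. All 6 genes of NADPH supply lay above 0 with a median of 0.080 and no call.

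Cell type markers were checked for sources of lipid gene signal other than 4T1 epithelium. All 6 epithelial markers were measured, with summed signals of 342362 (ALDH-negative) and 386851 (ALDH-positive). Of 8 adipocyte markers, only *Fabp4* was above background, at 19.1 and 27.6, and *Adipoq*, *Lep* and *Plin1* were not well above background. Of 7 leukocyte markers 4 were measured, with sums of 9951 and 6261, and *Ptprc* was not well above background. Most of the leukocyte sum was 1 probe of *Itgam* with a log2 ratio of -0.94, whose other probes had a median of -0.14. *Cd3e* at -0.47 and *Csf1r* at -0.34 also lay below 0, and *Cd68* lay the other way at 0.44. Of 4 endothelial markers 2 were measured, with sums of 7319 and 5426 that were nearly all *Kdr*, while *Pecam1* had 27.0 and 31.3. Of 5 fibroblast markers 4 were measured, with sums of 277 and 333. *Postn*, whose spot lies in the border strip, had 74.0 and 144, and the other 3 measured ones lay below 0. *Cdh5*, *Tek* and *Dcn* were not well above background. Among these markers, *Itgam* and *Kdr* were called lower, beside 2.03% of all measured genes, and *Postn* higher, beside 1.32%. The part of the markers in the lipid gene values was not tested. The mRNAs of the sorted activity gave log2 ratios of 0.0072 for *Aldh2* and 0.025 for *Aldh3a1* (0.62 with its other probe). *Aldh1a1* had 0.14 from dim signals of 17.8 and 19.6, and *Aldh1a2* and *Aldh1a3* were not well above background. The other ALDH genes that the study detected in 4T1 cells, *Aldh3a2*, *Aldh3b1* and *Aldh5a1*, had -0.049, 0.11 and 0.23. None of these genes was called, so they do not tell which array held the sorted ALDH-positive cells. Each array held 55681 probes, and 48.5% (ALDH-negative) and 49.4% (ALDH-positive) of them were well above background.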

How the data were processed

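Per the labels and the study's methods, the authors labelled total RNA of each fraction with Cy3, hybridised it to 1 slide and read 1-colour intensity values with Agilent Feature Extraction, version 9.5.1.1 by the submitters' processing notes and version 10.7.1.1 by the scanner files. The deposited scanner files give a background-subtracted processed intensity and its error for each spot, and the series table holds intensity after quantile normalization by the authors. The ALDH status of each array comes from the series description and the study together with the sample titles.

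Control spots (3671), population outliers (135 and 116 spots) and spots flagged as non-uniform were left out. Log2 processed signals, floored at 1, were averaged per probe, and both arrays were quantile-normalized. Z-scores used the 250 probes on either side in mean signal, since the methods do not define them. The limits on ratio and Z-score follow the methods. Symbols came from RefSeq (GRCm38.p6) by accession for 52 of the 56 probes of the 37 genes and from the array files otherwise. The 37 genes, the lists, the genes named and the alternatives were chosen with earlier results of these data known. Every one of the 37 is named with its value. The steps were tested on simulated data with planted changes larger than the ratio of any of the 37 genes but *Cyp46a1*, so that test does not bear on ratios this small. No spot was saturated (0 on either array), and probes printed repeatedly had a median SD within an array of 0.059 and 0.048 (log2). Python 3.11.15, pandas 2.3.3 and limma 3.58.1 were used. Alternatives were another scaling, other background corrections, the deposited table, other filters, other Z-score windows and, chosen after seeing the data, centring on nearby spots.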

Additional observations from a re-analysis of the deposited data

How the results depend on the processing

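The number of the 37 genes called higher was 1 under 10 of 12 alternatives and 0 under the other 2, namely without the last eighth of the rows and columns, where 28 genes remained and *Cyp46a1* was not among them, and with each log2 ratio centred on the 20 nearest measured spots, an alternative chosen after seeing the data. The number called lower was 0 except for 1, *Acat2*, with Z-scores against 100 and against 500 probes on either side. *Cyp46a1* had 0.98 with normexp and 0.95 with the background left in, and was called under both. It had -0.11 when centred on the 20 nearest spots, 9 of them above background on the ALDH-positive array only. The other 36 genes moved by less than their software error in every alternative. Of the 37, 21 had the same sign in every alternative and 16 changed it at least once, *Cyp46a1* and 15 genes of at most 0.14 in size. The median log2 ratio ranged from 0.030 to 0.15 for the sterol synthesis enzymes and from -0.0070 to 0.15 for the fatty acid synthesis genes over 9 alternatives, and a 75th percentile shift moved the median of all measured genes from 0.045 to 0.091. Over all genes, 184 were called higher, against 100 with normexp and 91 with the background left in, and 284 lower, against 184 with a Z-score over all probes. No paired analysis was possible because each fraction had a single array. With 1 array each, no difference between the fractions can be set against the spread between cultures or sorts.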
